A study of Apis mellifera with 9 samples.

Results

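The lower of the quercetin doses was compared with the quercetin-free diet in larvae of the honey bee, Apis mellifera. This comparison takes 6 of the 9 libraries in the series, chosen by the diet that their labels give: 3 from larvae on 0.1 mM quercetin and 3 from larvae on the control diet, while the 3 libraries from 0.25 mM quercetin stayed outside the fit. Newly hatched larvae were grafted into culture plates, 10 to 12 for each diet and replication, and fed for 3 days on 30 μl of food per well. Both diets were made of 50% royal jelly and 50% of a solution with 12% glucose, 12% fructose and 2% yeast extract, and the labels give the added quercetin as their only difference. Each library came from 1 of 3 replications. These are described as independent, but their colonies of origin are not stated, so the p-values measure the spread between these libraries, which may be technical. The labels give whole larvae as the source but midguts at the extraction step, and this could not be checked against tissue markers.

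Quercetin is a flavonol that plants make in quantity and that reaches bees through pollen, nectar, honey and bee bread. Honey bees oxidise it with cytochrome P450 enzymes, and such dietary phytochemicals are known in insects as inducers of the enzymes that clear them. Royal jelly, a gland secretion of nurse bees, holds far less plant material than pollen does. Which features of the count table belong to these enzymes was not established here, since the table names features only by GB identifiers and 0 of 15314 of them matched the 12398 genes of the reference table. The changes are therefore described by size, direction and abundance, no gene is given a name or a role, and no pathway list or tissue marker could be evaluated.

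Reads counted on features numbered between 35804851 and 41090037 in the 0.1 mM libraries and between 34456449 and 39355227 in the control libraries. The share of all reads that this represents was 65.9% ± 0.28 at 0.1 mM and 65.6% ± 0.0243 in control (SD, n = 3 each). Each 0.1 mM library lay above each control in this share, but the difference of 0.291 percentage points had p = 0.1, the smallest that an exact two-sided permutation test of 3 against 3 libraries can give. Between 9991 and 10096 features reached 1 CPM, a count per 1000000 reads counted on features, in the 0.1 mM libraries and between 9966 and 10049 in the controls, with overlapping values (exact permutation test, p = 0.5). Replicates were no copies of each other: the chi-square of their counts, divided by its degrees of freedom, was 24.2 to 61.9 for pairs of 0.1 mM libraries and 12.2 to 27.4 for pairs of controls. The first axis of a principal component analysis of log2 CPM held 36.7% of the variance, and on it the 0.1 mM libraries lay at 5.45, 12.8 and 21.9 and the controls at -9.9, -18.7 and -11.6. The diets did not overlap on this axis. On the second component, with 21.7% of the variance, 0.1 mM replicate 1 lay at -23.3, apart from every other library of the comparison (0.195 to 12.8).

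A small set of genes passed the test at 0.1 mM, most of them higher. Of 11356 genes tested, 32 rose and 6 fell in larvae on 0.1 mM quercetin relative to control (adjusted p under 0.05 by Benjamini-Hochberg over all genes, edgeR's quasi-likelihood test), which is 0.335% of genes called, 0.282% as higher and 0.0528% as lower. The median change among those that rose was 1.72-fold, with a range from 1.24-fold to 4.61-fold. The 6 that fell did so by a median of 1.53-fold, between 1.35-fold and 1.94-fold. Over all genes tested the fitted change had a median of -0.00216 on the log2 scale and a median size of 1.08-fold, and 95% of genes had a fitted change under 1.4-fold.

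**Figure D1:**
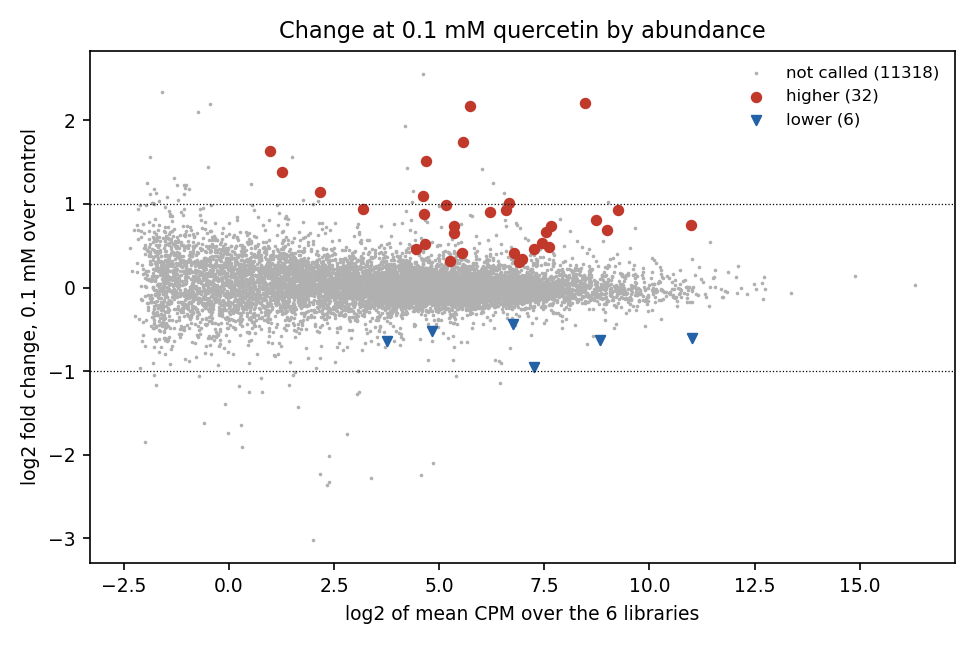
Log2 fold change of 0.1 mM over control (vertical axis) against the log2 of the mean CPM over the 6 libraries (horizontal axis) for 11356 genes, with dotted lines at a 2-fold change. The 32 genes called as higher (red circles) reach 4.61-fold, the 6 called as lower (blue triangles) stay within 1.94-fold, and the scatter of genes not called (grey) widens towards low CPM.

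Single libraries moved the number of calls. It was 79 without 0.1 mM replicate 1, and 8 without replicate 2 and 8 without replicate 3 of that diet. It was 4, 1 and 23 without control replicates 1, 2 and 3. Across these 6 omissions, the fitted log2 changes of the 38 genes stayed between 84.1% and 117% of their values with all libraries. The selection favours so narrow a range, since the 38 were picked in these libraries for a change large beside its spread. The same range over all genes tested was not computed. A single gene of the 38 was called in each of the 6 omissions, 1 in 5, 3 in 4, 2 in 3, 11 in 2, 16 in 1, and 4 in 0 of them. With all 6 libraries the calls also lay near the threshold, with an adjusted p over 0.03 for 22 of the 38 genes and under 0.02 for 10 (edgeR quasi-likelihood test). When all 9 libraries shared 1 estimate of the spread, 8 genes were called, or 0.0695% of those tested, all of them higher and all among the 38. DESeq2 on the same 6 libraries called 407 genes, 289 higher and 118 lower, which include the 38.

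**Figure D2:**
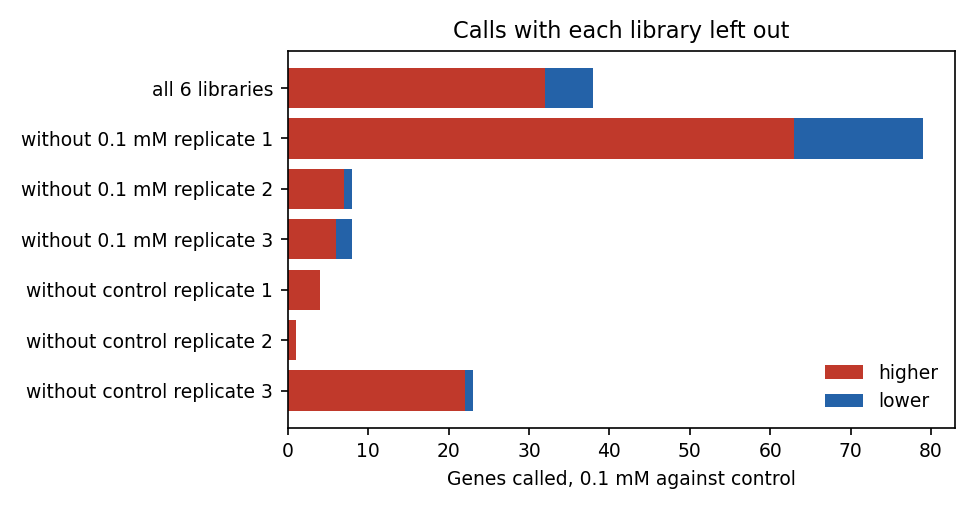
Number of genes called as higher (red) and lower (blue) at 0.1 mM against control, with all 6 libraries and with each library left out in turn. The bars run from 1 gene without control replicate 2 to 79 without 0.1 mM replicate 1, against 38 with all 6 libraries.

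The 9 genes that rose at least 2-fold covered a wide range of abundance. Their mean levels ran from 2.98 to 587 CPM at 0.1 mM, against 0.959 to 127 CPM in control. Together they made up 966 CPM at 0.1 mM and 270 CPM in control, values that describe genes picked in these same libraries. CPM is not scaled by the length of a feature, so it ranks genes by reads and not by transcripts. A further 13 genes rose between 1.5-fold and 2-fold, with a mean over the 6 libraries from 9.08 to 2020 CPM and a median of 96.5 CPM. The other 10 rose by 1.24-fold to 1.44-fold. These small increases were found in genes with 21.7 to 195 CPM, and the median SE of their log2 changes was 0.0528, against 0.0864 over all genes tested. A change this small passes the test only with a small SE, so the selection itself favours this difference. For 17 of the 38 called genes, the 95% interval of the change lay entirely beyond 1.5-fold, and for 5 entirely beyond 2-fold. These intervals are not adjusted for the number of genes. They belong to genes picked in these same libraries, which favours large fitted changes, so the counts are not a test. A test against a 1.2-fold change, adjusted over all genes tested, called 6 genes.

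The largest increase was in GB49888-RA. It had 382, 687 and 691 CPM in 0.1 mM replicates 1, 2 and 3, against 96.2, 111 and 175 CPM in the control replicates. The diets did not overlap, and 0.1 mM replicate 1 stood well below replicates 2 and 3. The mean was 587 ± 177 CPM at 0.1 mM and 127 ± 41.8 CPM in control (SD, n = 3 each), a rise of 4.61-fold (log2 2.20 ± 0.288, ± SE; edgeR, adjusted p = 0.0337). Its call was lost without control replicate 1 or 2 or without 0.1 mM replicate 2 or 3, with adjusted p between 0.072 and 0.193 in edgeR, and its log2 change then ran from 2.04 to 2.11. It was also lost with a robust dispersion prior (edgeR, adjusted p = 0.0896).

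The most abundant gene that rose was GB46587-RA, with 2321, 2548 and 2741 CPM in the 0.1 mM libraries, against 1483, 1426 and 1624 CPM in the controls. In every library at least 49016 reads stood behind these values. The mean was 2537 ± 210 CPM at 0.1 mM and 1511 ± 102 CPM in control (SD, n = 3 each). This is 1.68-fold, with a log2 value of 0.75 ± 0.0827 (± SE; edgeR, adjusted p = 0.0224). The call was lost without control replicate 1 or 2 or 0.1 mM replicate 2 or 3 (edgeR, adjusted p between 0.0501 and 0.13), and the log2 change stayed between 0.69 and 0.81 over the alternatives run.

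The largest decrease was in GB50609-RA, which had 101, 121 and 87.6 CPM in the 0.1 mM libraries, against 197, 207 and 197 CPM in the controls. The controls lay close together and the 0.1 mM libraries were spread more widely, all below them. The means were 103 ± 17 CPM at 0.1 mM and 200.2 ± 6.24 CPM in control (SD, n = 3 each), a log2 change of -0.95 ± 0.108 (± SE; edgeR, adjusted p = 0.0243) or a fall of 1.94-fold. Leaving out control replicate 1, 2 or 3 ended the call (edgeR, adjusted p = 0.105, 0.136 and 0.0575). The call held without any 1 of the 0.1 mM libraries, and the log2 change ran from -1.08, without 0.1 mM replicate 2 (edgeR, adjusted p = 0.00539), to -0.85 over the alternatives.

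The most abundant gene that fell was GB40976-RA, with 1747, 1662 and 1466 CPM at 0.1 mM, against 2435, 2570 and 2427 CPM in control. It averaged 1625 ± 144 CPM at 0.1 mM and 2478 ± 80.5 CPM in control (SD, n = 3 each). The log2 change was -0.61 ± 0.0773 (± SE; edgeR, adjusted p = 0.0337), a fall of 1.53-fold. Among the 6 omissions its call held without 0.1 mM replicate 1 (edgeR, adjusted p = 0.03) and was lost in the other five, with adjusted p from 0.0586 to 0.168.

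**Figure D3:**
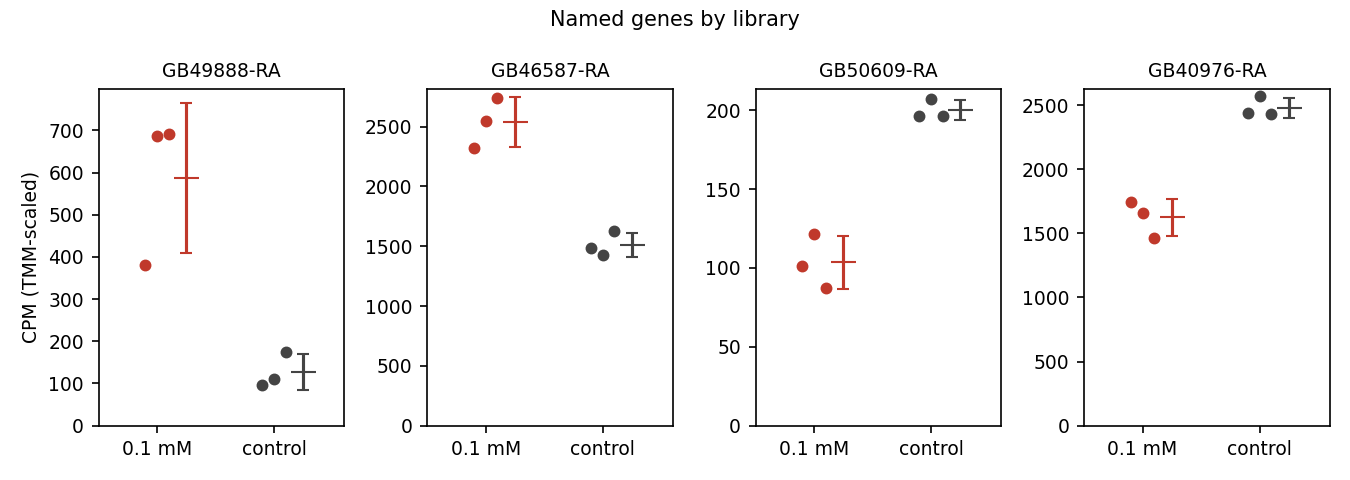
CPM of the 4 genes with the largest change and the highest mean CPM in each direction, with points for the 3 libraries at 0.1 mM (left, red) and in control (right, grey) and with mean and SD beside them; each vertical axis starts at 0. GB49888-RA and GB46587-RA lie higher in every 0.1 mM library, and GB50609-RA and GB40976-RA lower, with the widest spread in GB49888-RA at 0.1 mM.

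The other 34 called genes showed the same separation of the diets. In all 38 the 3 libraries at 0.1 mM lay entirely above or entirely below the 3 controls, a condition that 24.8% of all tested genes met and that the test favours. Among the 32 genes that rose, the lowest 0.1 mM library was 1.18-fold to 2.55-fold above the highest control, with a median of 1.47-fold. Among the 6 that fell, the lowest control was 1.22-fold to 1.62-fold above the highest 0.1 mM library. Replicate 1 of the 0.1 mM diet was the nearest to control in most of them: it held the lowest of the 3 values at that dose in 19 of the 32 genes that rose, against 10 in replicate 2 and 3 in replicate 3. For the genes that fell, replicate 1 held the highest value in 4 of 6, replicate 2 in 2 and replicate 3 in 0. These counts were not set beside the same counts over all genes tested. Replicate 1 also lay apart on the second principal component, so the order may not be particular to the called genes. The median log2 ratio to the control mean over the 32 genes was 0.67, 0.72 and 0.92 in 0.1 mM replicates 1, 2 and 3. Over the 6 genes that fell it was -0.51, -0.55 and -0.76. The median coefficient of variation within a diet was 7.37% at 0.1 mM and 6.3% in control for the 38 called genes. For all genes tested it was 6.71% and 6.91%. These medians were not matched for abundance: the called genes had a median of 85.2 CPM, against 22.2 CPM over all genes tested. Scatter was lower in abundant genes. From the third of genes with the lowest to that with the highest mean CPM, the median SD of log2 CPM was 0.2, 0.0821 and 0.0614 at 0.1 mM. In control it was 0.204, 0.0825 and 0.0682. Scatter at like abundance was not compared.

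**Figure D4:**
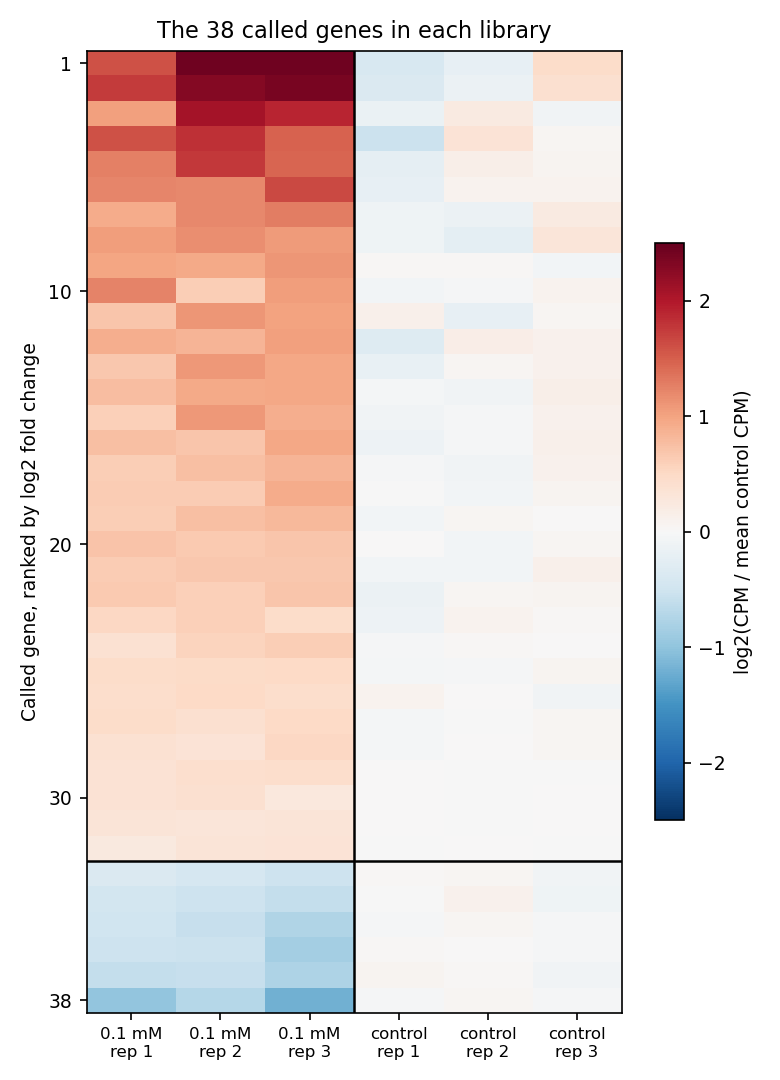
Log2 ratio of CPM to the mean control CPM (colour) for the 38 called genes, ranked from the largest increase to the largest decrease down the page, in the 3 libraries at 0.1 mM (left) and in control (right). The 32 genes above the horizontal line are higher in all 0.1 mM libraries, by a median of 0.67 in replicate 1 and 0.92 in replicate 3, and the 6 below it are lower in all of them.

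The share of genes called was lowest among weakly expressed genes. The tested genes were split into 3 abundance classes of equal size by their mean CPM. In the low class, up to 7.84 CPM, 3 of 3786 genes were called, or 0.0792%. In the middle class 12 of 3785 were called, or 0.317%, and in the high class, with means of at least 43.3 CPM, 23 of 3785, or 0.608%. The low class also held the fewest calls in DESeq2, with 39, 167 and 201 from low to high, and in the likelihood ratio test of edgeR, with 62, 136 and 130, where the middle class exceeded the high one. With 1 library left out, the low class had 0 to 10 calls, the middle class 0 to 32 and the high class 1 to 37. Of the 6 genes that fell, 2 were in the middle class and 4 in the high class. The precision of the measurement moved with this: the median half-width of the 95% interval of the log2 change was 0.444, 0.174 and 0.136 from the low to the high class. Its part in the order of these shares was not tested. The 3 called genes of the low class rose 3.11-fold, 2.61-fold and 2.2-fold. The least abundant of them had 106, 120 and 113 reads in the 0.1 mM libraries, against 25, 42 and 39 reads in the controls.

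Of the 20 features with the highest CPM, 0 were called in edgeR's quasi-likelihood test, where the smallest adjusted p was 0.124 and 2 had an unadjusted p under 0.05. Over all genes tested 0.335% were called and 18% had such a p, so counts this low in 20 features do not set them apart. DESeq2 called 1 of the 20, as higher, while limma-voom and the likelihood ratio test of edgeR called 0. Their fitted log2 changes ran from -0.14 to 0.25, 8 upward and 12 downward, and for 17 of the 20 the 95% interval excluded a change of 1.5-fold, beside 96% of genes in the high abundance class. The first of them averaged 83000 ± 6040 CPM at 0.1 mM and 81500 ± 1910 CPM in control (SD, n = 3 each), a log2 change of 0.03 (95% interval -0.18 to 0.23). These 20 features took 20.7% ± 1.77 of feature counts at 0.1 mM and 20.4% ± 0.537 in control, a difference within the spread (exact permutation test, p = 0.9). Their share was 22.3%, 20.9% and 18.8% in 0.1 mM replicates 1, 2 and 3, and without replicate 1 the difference turned round, to -0.54 percentage points. The most abundant gene that was called stood at rank 40. The called genes as a whole were a small part of the counts, with 0.752% ± 0.0831 at 0.1 mM and 0.429% ± 0.0217 in control for those that rose, and 0.22% ± 0.0129 and 0.341% ± 0.00971 for those that fell.

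Below the threshold, many genes had a low unadjusted p, and both directions were more evenly filled. Before adjustment, 2049 genes, or 18%, had a p under 0.05, of which 1058 were higher and 991 lower at 0.1 mM. Under 0.01 there were 708, or 6.23%, with 426 higher and 282 lower. In the low abundance class, 269 of the genes under 0.05 were higher and 133 lower, in the middle class 404 and 394, and in the high class 385 and 464. Between an adjusted p of 0.05 and 0.1 stood 190 more genes, 142 higher and 48 lower, with a median change of 1.3-fold. The libraries of the diets did not overlap in 2813 genes, 12% of those tested as higher and 12.8% as lower at 0.1 mM.

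For 10507 of the 11318 genes not called, the 95% interval excluded a 2-fold change in either direction, and for 8680 it excluded a 1.5-fold change. A change of 2-fold was excluded in 81% of genes in the low abundance class, 98.3% in the middle and 98.9% in the high class. Another 67 genes had a fitted change of at least 2-fold without passing the test, 37 higher and 30 lower. They were mostly weakly expressed, with a median of 1.43 CPM and 50 of them in the low class, and the median SE of their log2 changes was 0.441. In 37 of the 67 the libraries of the diets did not overlap, beside 24.8% of all genes tested. Picking genes by a large fitted change in these same libraries favours this, so the 2 shares are not a test. In 19 of the 67, a single library held more than 50% of the summed CPM of the diet that was higher. Another 3958 features had too few reads to be tested, 1492 of them with no read in the 6 libraries. No untested feature had more than 26 reads in any of the 6 libraries. A fit without the filter took in the other 2466, of which 0 were called and 68 had an unadjusted p under 0.05 (edgeR quasi-likelihood test). Their 95% intervals had a median half-width of 2.22 on the log2 scale and excluded a 2-fold change for 38 of them, so that for nearly all a 2-fold change was neither called nor excluded. Reads in all 3 libraries of 0.1 mM and in none of the controls were found for 12 features, with at most 6 reads in a library, and the opposite for 9, with at most 3.

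Among the called genes, 6 of 38 carried an identifier adjacent to that of another called gene, 15.8%, against 54 of 11318 genes not called, 0.477%. The 6 fall into a pair and a run of 4 consecutive numbers that ends with GB49888-RA, and all rose. This pattern and the genes described for it were noticed after the values had been seen, and whether adjacent numbers are adjacent genes or share reads was not established here. In the run, the first feature had 671, 889 and 820 CPM at 0.1 mM, against 367, 435 and 454 CPM in control, and the second 206, 218 and 197 against 131, 153 and 147 CPM. The third, GB49887-RA, had 133, 130 and 143 CPM at 0.1 mM, against 68.5, 68.7 and 63.8 CPM in control. The diets did not overlap in any of them. Their log2 changes were 0.92, 0.53 and 1.02, with 2.20 for GB49888-RA as the fourth.

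GB49887-RA had the smallest p of all genes tested, with a rise of 2.02-fold (log2 1.02 ± 0.0566, ± SE; edgeR, adjusted p = 0.00151). It was the gene whose call survived each of the 6 omissions, where its log2 change ran from 0.97 to 1.04 and its adjusted p in edgeR was at most 0.02. The calls of the first and second feature of the run were less stable, held in 1 and 0 of the 6 omissions, and that of GB49888-RA in 2. On the side of lower numbers, the neighbour just before the run had a log2 change of -0.02 (95% interval -0.12 to 0.09). On the other side, the next 3 tested features had log2 changes of 2.55, 0.85 and 0.89, none of which passed the test (edgeR, adjusted p = 0.132, 0.0656 and 0.0842). The first of these varied widely, with 15.3, 87.3 and 22.2 CPM at 0.1 mM, against 5.05, 6.25 and 9.86 CPM in control.

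**Figure D5:**
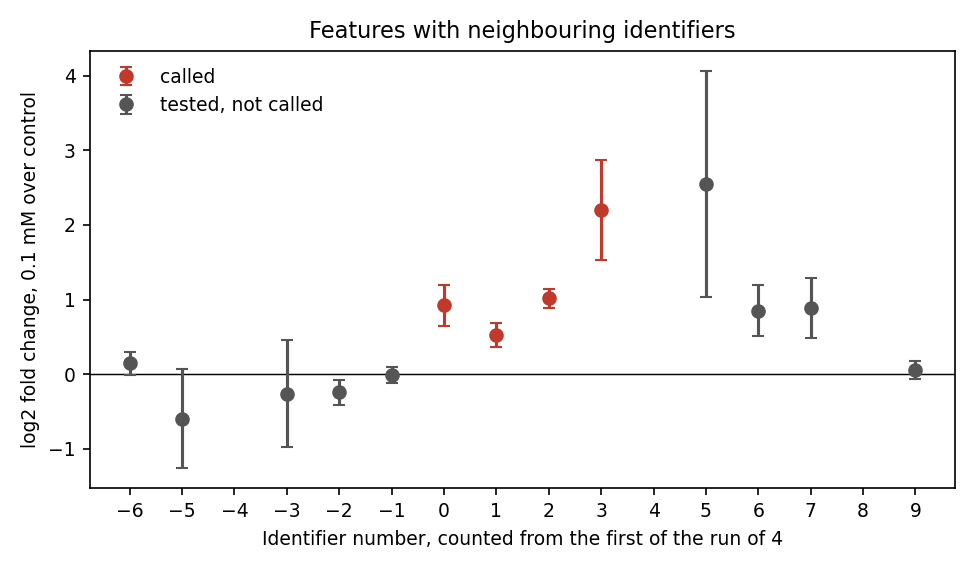
Log2 fold change of 0.1 mM over control with 95% intervals (vertical axis) for tested features with neighbouring identifier numbers, counted from the first of the 4 consecutive called genes (horizontal axis). The 4 called genes (red, positions 0 to 3) lie between 0.53 and 2.20, and the feature at position -1 (grey) lies at -0.02.

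At the higher dose, on a common scaling of all 9 libraries, GB49888-RA had 426, 1127 and 596 CPM in the 0.25 mM libraries, beside 375, 675 and 679 CPM at 0.1 mM and 94.5, 110 and 172 CPM in control. Its difference between the doses was 0.31 ± 0.369 on the log2 scale of 0.25 mM over 0.1 mM (± SE; edgeR, adjusted p = 0.564). GB40976-RA differed by -0.31 ± 0.124, GB46587-RA by -0.23 ± 0.109 and GB50609-RA by 0.61 ± 0.237 between 0.25 mM and 0.1 mM, and none passed (edgeR, adjusted p = 0.117, 0.164 and 0.111). In that fit 0 of 11508 genes, or 0%, were called between the doses (edgeR, smallest adjusted p = 0.0774), with 34.1% at an unadjusted p under 0.05. The 38 genes called at 0.1 mM had 15 under that limit, 39.5%. For 0.1 mM over control in the same fit, 1037 of the 11508 genes had an unadjusted p under 0.05. The lack of calls between the doses therefore does not show that the doses were alike.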

How the data were processed

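TruSeq libraries were sequenced, per the labels' protocols. What the authors deposited is a single table with the raw, unscaled count of reads on each of 15314 features, plus 5 bookkeeping lines, which were kept out of library sizes and tests. Reads on no feature averaged 13.4% at 0.1 mM and 13.6% in control, ambiguous reads 3.47% and 3.55%, and unaligned reads 17.2% and 17.3%. The submitters' processing notes list CASAVA 1.8, HTSeq and edgeR, with no roles. For the aligner, the build, the gene annotation and the use of strand, the sources used here say nothing. Overlapping or antisense genes and near-identical copies can therefore not be told apart, and no coordinates are reported. Column headings gave the diet of each library. The 3 columns of 0.25 mM share 1 heading and were used without a replicate number.

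The 6 libraries were fitted in edgeR 4.0.16 (R 4.3.3) with filterByExpr, TMM scaling, estimateDisp, glmQLFit and glmQLFTest, with diet as the only term and 4 residual and 7.77 total degrees of freedom. Adjustment was by Benjamini-Hochberg over all genes tested, at a threshold of 0.05. The standard error is the log2 change divided by the square root of F, and 95% intervals use the total degrees of freedom. CPM used TMM-scaled library sizes. Simulated counts with known changes were used to test the script. Intervals cover the spread between these libraries only, and reads without molecular identifiers are not independent molecules. Alternatives were other scalings, filters and thresholds, DESeq2 1.42.0, limma-voom (limma 3.58.1), edgeR's likelihood ratio test, a robust prior, a test against a 1.2-fold change, all 9 libraries, a replicate block and each library left out.

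The comparison, the tests and the rule for identifiers were chosen with earlier results of these data known. The rule names at most 2 genes per direction: the called gene with the largest change and the one with the highest mean CPM, among genes with at least 1 CPM whose diets do not overlap. GB49887-RA and the genes of the closing section that were not called were chosen after their values had been seen.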

Additional observations from a re-analysis of the deposited data

Results flagged for a closer look

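The 0.25 mM libraries lie outside the comparison of 0.1 mM with control. The 32 genes called as higher at 0.1 mM summed there to 6775, 8006 and 7088 CPM, a mean of 7290 CPM, on a common scaling of all 9 libraries. They summed to 6730, 7581 and 7859 CPM at 0.1 mM and to 4023, 4139 and 4487 CPM in control, so each library of 0.25 mM lay above each control. The 6 genes called as lower summed to 2145, 1773 and 1512 CPM at 0.25 mM, 2320, 2248 and 1940 CPM at 0.1 mM and 3305, 3465 and 3265 CPM in control. Most of this sum is GB40976-RA, with 1544, 1211 and 1105 CPM at 0.25 mM, 1716, 1633 and 1439 CPM at 0.1 mM and 2392, 2539 and 2385 CPM in control. GB50609-RA did not follow it: at 0.25 mM it had 134, 226 and 106 CPM, with 1 library above every control. It had 99.6, 119 and 86 CPM at 0.1 mM and 193, 205 and 193 CPM in control. In the fit of all 9 libraries its change over control passed at neither dose. The log2 change was -0.34 at 0.25 mM and -0.96 at 0.1 mM (edgeR, adjusted p = 0.273 and 0.249). The 0.25 mM mean lay above the 0.1 mM mean in 18 of the 32 genes and below it in 4 of the 6. The genes were chosen against these same controls, so the distance of both doses from control is not independent, and the sums were not tested. By gene, in the fit of all 9 libraries, the change of 0.25 mM over control passed for GB49888-RA, GB46587-RA and GB40976-RA. Their log2 changes were 2.52, 0.51 and -0.92 (edgeR, adjusted p = 0.00633, 0.0117 and 0.00512).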

How the results depend on the processing

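With all 6 libraries, 38 genes were called, 32 higher and 6 lower. DESeq2 called 407 (289 higher, 118 lower), edgeR's likelihood ratio test 328 (248 and 80), a threshold of 0.1 gave 228 (174 and 54) and one of 0.01 gave 2 (2 and 0). A test against a 1.2-fold change called 6 (6 and 0) and the fit of all 9 libraries 8 (8 and 0). DESeq2 and the likelihood ratio test each called all 38. RLE scaling gave 37, upper-quartile scaling 41, limma-voom 34, the robust prior 55, no filter 55 and at least 5 CPM in 3 libraries 30. With 1 library left out the count ran from 1 to 79, with 1 to 63 higher and 0 to 16 lower. With the replicate number as a block, 23 genes were called, 22 higher and 1 lower, 14 of them among the 38. Deviations from the mean of the diet had correlations across genes of -0.0762, 0.105 and -0.116 for same-numbered libraries. For the other pairs across diets they ran from -0.142 to 0.231. So few values, centred within each diet, cannot decide whether the numbers mark pairs. The main fit did not take them as pairs. Under the block GB40976-RA was not called (edgeR, adjusted p = 0.0739, against 1.45e-11 to 0.168 over its alternatives). None of the 38 genes changed direction in any of the 19 alternatives that tested it. This was largely fixed in advance: the diets did not overlap in any of the 38, so leaving out a library could hardly reverse a direction. The thresholds of 0.1 and 0.01 also reuse the main fit. The unchanged direction is therefore not a test of these genes. With all 9 libraries, the 4 genes of the naming rule were not called (edgeR, adjusted p = 0.0986, 0.059, 0.249 and 0.157 for GB49888-RA, GB46587-RA, GB50609-RA and GB40976-RA). The number of genes whose interval excludes a 2-fold change, 10528 of those tested, was 8026 to 10599 over the scalings, filters, the block and all 9 libraries, and 10145 to 10330 with 1 library left out. For 1.5-fold it was 8686, with 7571 to 8753 and 8055 to 8433. These are counts and not shares, since the filters changed the number of genes tested. The filter of at least 5 CPM in 3 libraries, with the lowest counts, left 8170 genes. The fit without a filter, with the highest, took 13822, against 11356 in the main fit. With 1 library left out, the difference between the diets in percentage points ran from 0.142 to 0.417 for reads on features, from -0.043 to 0.273 for the most abundant feature and from -0.54 to 1.22 for the top 20, and in features reaching 1 CPM from 6.83 to 59.3.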

Other observations

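Some of the largest fitted changes at 0.1 mM were in genes that differed between libraries of 1 diet and were not called. A run of 5 consecutive identifiers, GB55205-RA to GB55209-RA, chosen after its values were seen, had fitted log2 changes from -2.36 to -2.10 (edgeR, adjusted p from 0.256 to 0.383, SE from 0.924 to 1.17). Its 5 features together had 2804 reads in 0.1 mM replicate 1 but 55 and 38 in replicates 2 and 3, against 5752, 2334 and 5391 reads in the controls. The 0.25 mM libraries had 3668, 4000 and 38 reads, so 1 library of that diet was low as well. Feature counts in the low libraries were 35804851 and 41090037 at 0.1 mM and 39047388 at 0.25 mM, against 34456449 to 42874091 in the others, a range that holds all 3. Low and high libraries occurred within both quercetin diets, and the 3 controls were all high.

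A similar spread was seen in 3 other genes with a fitted decrease of at least 4-fold and no call. GB46518-RA had 0.109, 2.27 and 0.305 CPM at 0.1 mM, against 0.925, 13 and 7.2 CPM in control. Its log2 change was -3.01, with a 95% interval from -5.45 to -0.58 (edgeR, adjusted p = 0.206). GB46585-RA and GB46591-RA were likewise lowest in control replicate 1 among the controls, at 1 and 0.899 CPM, and highest in control replicate 2, at 14.3 and 15 CPM. At 0.1 mM they were highest in replicate 2, at 4.32 and 4.74 CPM. None of the 8 genes with a fitted decrease of at least 4-fold was called.

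In each of the 4 uncalled genes with a fitted increase of at least 4-fold, the 0.1 mM libraries lay above all controls. This held for 12% of all genes tested, and picking genes by a large fitted increase favours it. GB47546-RA had 0.845, 1.11 and 0.961 CPM at 0.1 mM, against 0.159, 0.145 and 0.357 CPM in control, a log2 change of 2.10 (95% interval 1.34 to 2.85; edgeR, adjusted p = 0.0525). GB49800-RA and GB52184-RA had log2 changes of 2.33 and 2.19 (edgeR, adjusted p = 0.0633 and 0.0782) at means of 0.33 and 0.728 CPM over the 6 libraries. The fourth, GB49890-RA, follows the run of called genes by identifier. It was uneven within the 0.1 mM diet, from 15.3 to 87.3 CPM, with more than 50% of the summed CPM of that diet in a single library. These genes were chosen after their values were seen.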
